A study of Drosophila melanogaster with 6 samples.

Results

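In DamID-seq of Drosophila medulla neuroblasts, 311 peaks of Eyeless (Ey) binding were called separately in both Ey-Dam replicates yet shared no base pair with any peak of the reproducible Ey list. They are called missed peaks here. The members were selected on the measured peak calls: each was a peak of Ey-Dam replicate 2 that shared at least 1 bp with a peak of Ey-Dam replicate 1 and none with a peak that passed the Irreproducible Discovery Rate (IDR) cut-off. They made up 311 of the 1509 replicate 2 peaks. A further 845 peaks were found in both replicates and overlapped a reproducible Ey peak (retained peaks), and 353 had no replicate 1 peak. Replicate 1 held 1470 peaks and the reproducible list 984.

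The series compared 3 genotypes with 2 libraries each, all carrying UAS-Dcr2, the temperature-sensitive tubG80ts repressor over CyO and the SoxN-Gal4 driver, with UAS-Ey-Dam or UAS-Su(H)-Dam as the fusion and UAS-Dam as the control. Eggs were collected over 8 h at 25 °C, larvae were held at 18 °C for 3 days, and the transgene was induced at 29 °C for 72 h. Optic lobes of climbing larvae in the third instar were used, from about 100 pooled brains per library. SoxN-Gal4 drives expression in all medulla neuroblasts, so binding in other cells of the lobe was read only as far as the driver reached them, and the Ey-Dam transgene adds Ey to the cells it marks. Each peak list gives a fusion relative to Dam alone. No list gives reads, so the depth behind a score is unknown, and the number of libraries limits precision. The Dam-only libraries set against each fusion library are not named, so Ey and Su(H) values may share controls.

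Ey is a Pax6 homologue with a paired domain and a homeodomain. In medulla neuroblasts it is one of the temporal transcription factors, which follow each other as a neuroblast ages and give its daughters different fates. Su(H) is the DNA-binding factor of the Notch pathway. With Notch inactive it recruits co-repressors, and with Notch active it binds the cleaved Notch intracellular domain and activates targets such as the E(spl) genes. In DamID the fused Dam methylates adenine in GATC near the places where the factor sits, so a peak is a run of GATC fragments and not a footprint. Every one of the 311 missed peaks began and ended inside a GATC of the dm6 genome, and they held 3 to 14 fragments with a median of 5.

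The sequences show what the missed peaks looked like at the DNA level. In the stretches of 300 bases, capitals mark each GATC and each match to the Ey consensus of the study or to a textbook Su(H) consensus. The Su(H) forms are CGTGAGAA, CGTGGGAA, TGTGAGAA and TGTGGGAA. In the shorter stretches, capitals mark only the consensus match. The first comes from an intron of neur, which encodes a ubiquitin ligase that activates the Notch ligand Delta. It is shown because this missed peak was the only one with both consensus matches in the 1000 bp centred on it. Its Ey match, TAACCGAATGAATGAA, lay 32 bases from its Su(H) match.
neur intron, chr3R:9032695-9032994, plus strand: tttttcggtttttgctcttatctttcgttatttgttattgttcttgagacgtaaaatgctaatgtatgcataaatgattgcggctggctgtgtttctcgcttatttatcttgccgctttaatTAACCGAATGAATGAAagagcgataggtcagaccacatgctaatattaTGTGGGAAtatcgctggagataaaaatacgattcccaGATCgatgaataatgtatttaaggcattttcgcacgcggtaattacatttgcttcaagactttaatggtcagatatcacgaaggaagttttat
The second set gives the Su(H) matches of missed peaks in introns of Delta and of the receptor phosphatase gene Ptp10D, each read 5′ to 3′ on the strand of the match. The coordinates are those of the match, and 7 flanking bases are shown on each side.
Delta, chr3R:19315316-19315323, plus strand: caaattgTGTGGGAAaatcagc
Ptp10D first match, chrX:11628287-11628294, minus strand: gaaaaaaTGTGGGAAaaacgcg
Ptp10D second match, chrX:11628705-11628712, minus strand: caattgcTGTGAGAAaaaacta
Further stretches show DNA with GATC sites and no match to either consensus. They come from the missed peak beside E(spl)malpha-BFM, which carried some of the highest Su(H) scores, and from missed peaks in 2 temporal factor genes, scro and dmrt99B. The E(spl)malpha-BFM stretch and the end of the neur stretch lay in parts of their peaks that were called in replicate 2 and not in replicate 1.
E(spl)malpha-BFM upstream, chr3R:26009415-26009714, plus strand: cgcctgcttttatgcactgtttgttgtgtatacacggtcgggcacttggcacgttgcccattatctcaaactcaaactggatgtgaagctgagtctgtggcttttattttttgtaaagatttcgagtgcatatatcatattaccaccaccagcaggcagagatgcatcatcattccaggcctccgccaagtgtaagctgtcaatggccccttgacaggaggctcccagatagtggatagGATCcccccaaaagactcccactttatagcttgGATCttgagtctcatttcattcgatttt
scro intron, chr3L:24742265-24742564, plus strand: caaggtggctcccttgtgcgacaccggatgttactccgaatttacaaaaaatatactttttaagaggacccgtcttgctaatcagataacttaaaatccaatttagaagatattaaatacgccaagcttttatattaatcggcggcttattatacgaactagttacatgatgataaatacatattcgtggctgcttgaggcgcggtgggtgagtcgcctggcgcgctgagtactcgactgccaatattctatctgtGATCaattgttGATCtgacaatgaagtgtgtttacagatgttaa
dmrt99B intron and 96 bases of coding exon, chr3R:29693222-29693521, plus strand: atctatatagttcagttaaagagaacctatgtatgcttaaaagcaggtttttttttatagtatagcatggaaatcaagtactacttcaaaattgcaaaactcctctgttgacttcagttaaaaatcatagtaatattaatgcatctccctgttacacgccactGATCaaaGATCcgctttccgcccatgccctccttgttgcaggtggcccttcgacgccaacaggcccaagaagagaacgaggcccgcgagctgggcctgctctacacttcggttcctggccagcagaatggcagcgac

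The scores of the missed peaks follow from the rule and are given as description, with no test. The deposited score of a peak is the one that the find_peaks program gave it from the log2 ratio of the fusion to Dam. In Ey-Dam replicate 2 the missed peaks had a median score of 3.72 (10th to 90th percentile 3.25 to 4.45), against 4.87 (4.04 to 5.71) for the retained peaks. In replicate 1 their best partners had a median of 4.43 (3.93 to 5.07), against 5.53 (4.75 to 6.46). The median missed peak stood at percentile 24.2 of the replicate 2 list and its partner at percentile 20.9 of the replicate 1 list.

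None of the missed peaks lay in the upper part of both lists. Of the 311, 251 scored below the list median in both replicates, 35 reached the median of 4.42 in replicate 2, 25 reached the median of 5.14 in replicate 1, and 0 reached both. Of the retained peaks, 476 of 845 reached both medians and 48 reached neither. The distributions nevertheless met: 27 retained peaks scored under the missed median in replicate 2 and 30 did so in replicate 1, but only 2 did so in both. Likewise 5 missed peaks exceeded the retained median in replicate 2, 4 exceeded it in replicate 1 and 0 exceeded both. The lowest of the missed peaks, an intergenic peak of 6990 bp on 3L, scored 2.19 in replicate 2 and 2.90 in replicate 1 and was also the longest.

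**Figure D1:**
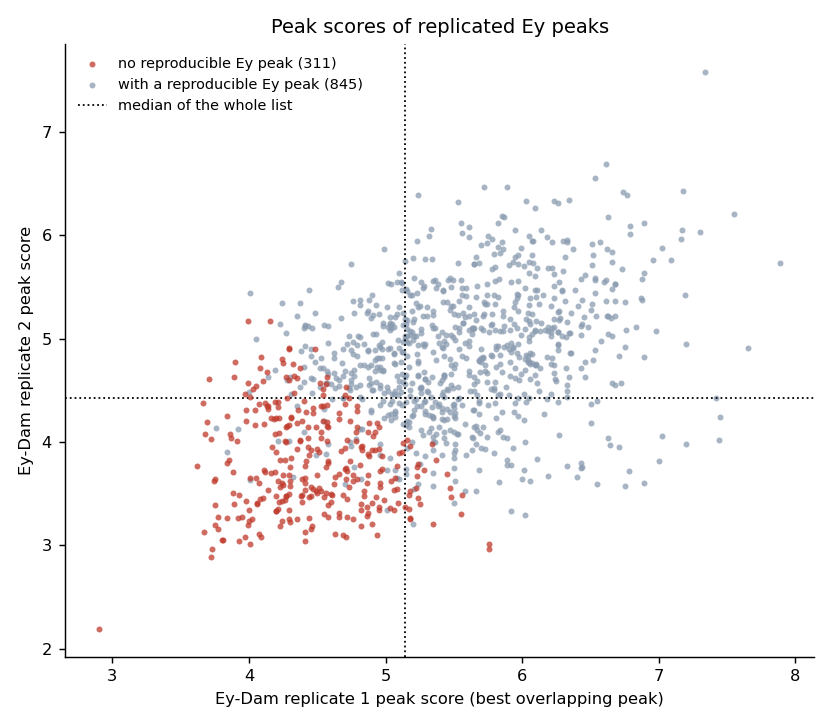
Peak score in Ey-Dam replicate 1 (x axis, best overlapping peak) and in Ey-Dam replicate 2 (y axis) for each replicated Ey peak, red for the 311 missed and grey for the 845 retained; dotted lines are the list medians. No red point lies to the upper right of both lines, and 251 lie to the lower left of both.

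The replicate lists hold only peaks with a false discovery rate (FDR) under 0.01, so small values at the missed peaks follow from the rule. Their median FDR was 3.93e-04 in replicate 2 and 4.51e-04 in replicate 1, against 3.07e-05 and 2.58e-05 for the retained peaks. They were shorter, with a median of 1195 bp against 1702 bp, and together covered 425728 bp against 1723049 bp. Of the missed peaks, 153 of 311 (49.2%) had the same start and end in both lists, against 361 of 845 retained peaks (42.7%). Borders can fall only at GATC sites, and whether peak length bears on these 2 shares was not tested. The 311 members had 311 distinct replicate 1 partners, with 1 member holding 2 partners and 1 partner serving 2 members, and none of these partners touched a reproducible Ey peak.

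A few peaks sat at the edge of the rule. The overlap with replicate 1 was 1 bp for 3 members, in an intron of chm, beside jing and in an intron of CG32816 near l(1)sc. An intergenic member on 2L shared 1 bp with its best partner, which scored 5.34, and overlapped a second one. On the side of the reproducible list, the nearest members lay 26 bp (hbn), 28 bp (CG4766) and 35 bp (intergenic, upstream of slp1) from a reproducible Ey peak. The retained peaks with the smallest overlap shared 214, 295 and 351 bp with one, at scores of 4.58, 5.56 and 5.34 in replicate 2. These were the shortest retained peaks, the first at 215 bp. Each lay almost wholly inside a reproducible peak, so they were not borderline overlaps. Most members were far from the edge, with a median distance of 17430 bp to the nearest reproducible Ey peak, 285 of them over 1000 bp and 180 of them over 10000 bp away.

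Su(H) peaks were not used by the rule, and about 6 in 10 missed peaks carried one in each Su(H)-Dam replicate. In Su(H)-Dam replicate 1, 188 of 311 missed peaks (60.5%) shared a base with a Su(H) peak, against 697 of 845 retained peaks (82.5%) and 66.5% of all Ey-Dam replicate 2 peaks. In Su(H)-Dam replicate 2 the shares were 191 of 311 (61.4%), 686 of 845 (81.2%) and 67.9%. Both Su(H) replicates had a peak at 162 missed peaks (52.1%), against 646 retained peaks (76.4%) and 60.9% of all. For the peaks without a replicate 1 partner this share was 31.4%, so the missed peaks lay between the other classes. The missed share was the lower one in each of the 2 Su(H)-Dam libraries, and with 2 libraries no test of the difference was made.

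The shares lay further apart in the reproducible Su(H) list. It held a peak at 67 missed peaks (21.5%), against 553 retained peaks (65.4%) and 45.9% of all. Where both Su(H) replicates had a peak, 64 of 162 missed peaks (39.5%) also had a reproducible Su(H) peak, against 518 of 646 retained peaks (80.2%) and 70.0% of all replicate 2 peaks with both. The other 98 missed peaks (31.5%) were thus called in all 4 fusion lists and in neither reproducible list. Su(H) peaks in both replicates without a reproducible one were found at 18.3% of all replicate 2 peaks. The Su(H) scores at the missed peaks were low as well, with medians of 2.83 in replicate 1 and 2.66 in replicate 2 where a peak was present, against 3.52 and 3.25 at the retained peaks. Those medians correspond to percentiles 29.2 and 33.2 of the Su(H) lists for the missed peaks, against 67.1 and 65.7. Over the 162 members with both, Spearman's rho between the Su(H) replicates was 0.740; the points may share Dam controls, and it is given as a description.

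The share with Su(H) moved with the Ey score of replicate 2, while the median Ey scores of replicate 1 gave no such order. The median replicate 1 score was 4.41 for missed peaks with Su(H) in both replicates, 4.53 with Su(H) in 1 and 4.45 with neither. Among missed peaks with a replicate 2 score from 3 to under 3.5, 36 of 95 (37.9%) had Su(H) peaks in both replicates, and from 4 to under 4.5 it was 55 of 80 (68.8%). In that upper band 109 of 160 retained peaks (68.1%) had them. From 3.5 to under 4 the counts were 52 of 104 missed and 40 of 68 retained peaks (58.8%). From 4.5 to under 5 the shares were 69.2% of 26 missed and 74.4% of 250 retained peaks. In the reproducible Su(H) list the classes stayed apart at like replicate 2 scores, with 32.5% of missed and 46.9% of retained peaks in the band from 4 to under 4.5. The replicate 1 Ey scores were not matched in these bands, and over all peaks their medians were 4.43 and 5.53. The bands were chosen after the scores were seen, and below 3.5 only 5 retained peaks were left.

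**Figure D2:**
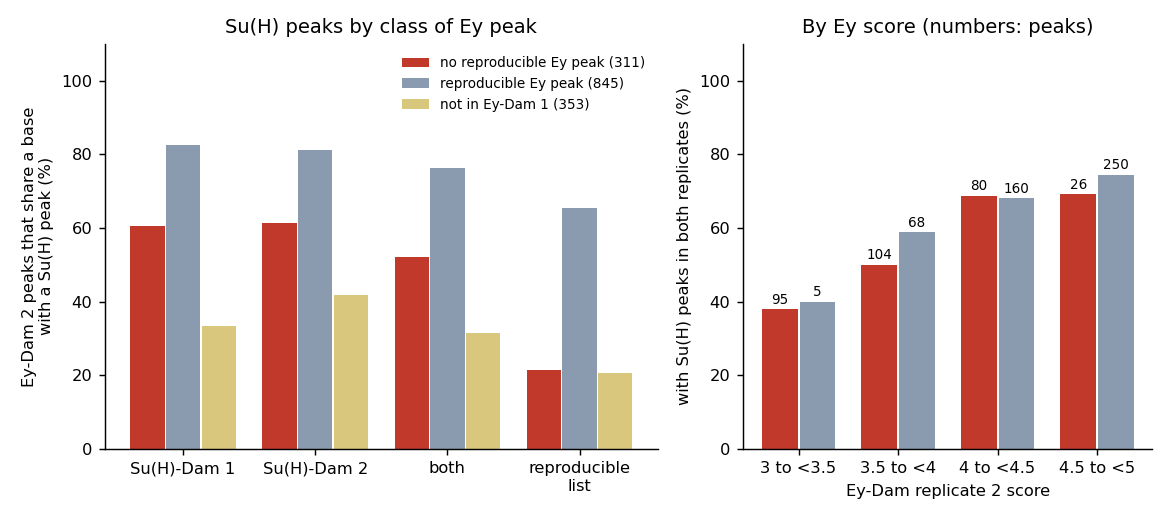
Left, share of Ey-Dam replicate 2 peaks (y axis, %) that share a base with a Su(H) peak in each list, for missed peaks (red), retained peaks (grey) and peaks without a replicate 1 partner (yellow). Right, the share with Su(H) peaks in both replicates by Ey-Dam replicate 2 score, with the number of peaks above each bar; the bars of the 2 classes stand at 68.8% and 68.1% from 4 to under 4.5.

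Ranked by the lower of their percentiles in the 2 Su(H)-Dam lists, the first 5 missed peaks lay at neur, grh, E(spl)malpha-BFM, Delta and Hey. Of these genes, 4 are in the lists of Notch pathway components (30 genes) or of Hes, E(spl) and Bearded targets (19 genes). Those lists held 2 and 6 genes with a missed peak, beside 2.22% of all annotated genes. In pairs of scores below, the first is replicate 1 and the second replicate 2. The peak in the neur intron scored 4.52 and 4.19 in Su(H)-Dam, beside 4.38 and 3.48 in Ey-Dam. The intronic peak of grh, a transcription factor gene of neuroblasts and epithelia, reached 4.93 and 4.07 in Su(H)-Dam, and its Ey scores were 4.70 and 4.37. Their Su(H) percentiles of at least 95.2 follow from this ranking, and no missed peak reached the median of both Ey lists. Beside E(spl)malpha-BFM, a Bearded-family inhibitor of Neur, the Su(H) scores were 4.13 and 4.15 and the Ey scores 4.92 and 4.10. In the Delta intron, Su(H) reached 3.94 and 4.01 while Ey reached 4.17 and 3.95. At Hey, which encodes a Hes-related repressor, the values were 3.88 and 3.92 in Su(H)-Dam against 4.66 and 4.22 in Ey-Dam. The Hey peak had no reproducible Su(H) peak, while the other 4 had one.

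No Su(H) peak of any list lay at 93 missed peaks (29.9%), against 101 retained peaks (12.0%), 25.7% of all Ey-Dam replicate 2 peaks and 55.0% of those without a replicate 1 partner. The one with the highest Ey scores spanned a transcript start of IP3K1, an inositol trisphosphate kinase gene on 2L, at 4.94 and 4.18. Next came intergenic peaks on 3R, at 4.88 and 4.18, and on 2L, at 4.72 and 4.02. A peak over a coding exon at CG3792, CG8891 and CG8892 scored 4.71 and 4.53, and an intronic peak of CG45263 scored 4.83 and 3.92. The missed peaks without Su(H) had a median replicate 2 score of 3.55, against 3.94 for those with Su(H) in both replicates, whereas in replicate 1 the medians were 4.45 and 4.41.

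Ranked by the lower of their percentiles in the 2 Ey-Dam lists, the missed peaks began at IP3K1, followed by the intergenic 3R peak, fne, E(spl)malpha-BFM, Ptp10D, Raf, blot, Meltrin, bi and br. All 10 had a lower percentile between 34.1 and 39.6. The fne gene encodes an ELAV-family RNA-binding protein of neurons, and its intronic Ey peak scored 4.95 and 4.14, with Su(H) at 3.31 and 2.66. At Ptp10D the Ey scores were 4.87 and 4.10 and those of Su(H) 3.56 and 3.42. Raf encodes the kinase of the Ras pathway and shared its peak, 4.91 and 4.06, with CG14050 and CG2854. The peak at blot and Sec3 scored 4.79 and 4.30 and that in Meltrin, a metalloprotease gene, 4.79 and 4.35. The T-box gene bi had a peak of 4.79 and 4.14, and br, a zinc finger gene of the ecdysone response, one of 4.78 and 4.10. Of the 10, 7 had Su(H) peaks in both replicates, blot had one in replicate 1 only, and IP3K1 and the intergenic peak had none.

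Missed peaks were spread over all 6 chromosome arms, but unevenly relative to the retained peaks. On 3L 44 missed peaks stood beside 214 retained ones (17.1% of the replicated peaks there), and on X 64 stood beside 114 (36.0%). The arms 2L, 2R and 3R lay between, at 25.7%, 31.9% and 27.8%, and the small arm 4 held 2 missed and 11 retained peaks. Per megabase this was 1.57 missed and 7.61 retained peaks on 3L, and 2.72 missed and 4.84 retained peaks on X. The median replicate 2 score of the missed peaks varied little between these arms, at 3.62 on 3L and 3.75 on X. The sex of the pooled larvae is not given in the sources used here, and its part in the X values was not tested.

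At their midpoints, 143 missed peaks (46.0%) lay in an intron, 74 (23.8%) between genes and 22 (7.07%) within 1000 bp upstream of a transcript start. The retained peaks gave 48.2%, 32.4% and 7.93%, and all Ey-Dam replicate 2 peaks 46.1%, 28.0% and 7.75%. Exons of coding genes were more frequent among the missed than among the retained peaks. In a coding exon or UTR lay 63 of 311 midpoints (20.3%), against 71 of 845 (8.40%) and 14.4% of all replicate 2 peaks. These comprised 20 coding exon, 33 5' UTR and 10 3' UTR midpoints, against 19, 44 and 8. Peaks without a replicate 1 partner had 23.8%. A transcript start lay inside 101 missed peaks (32.5%), 248 retained peaks (29.3%) and 29.9% of all replicate 2 peaks.

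**Figure D3:**
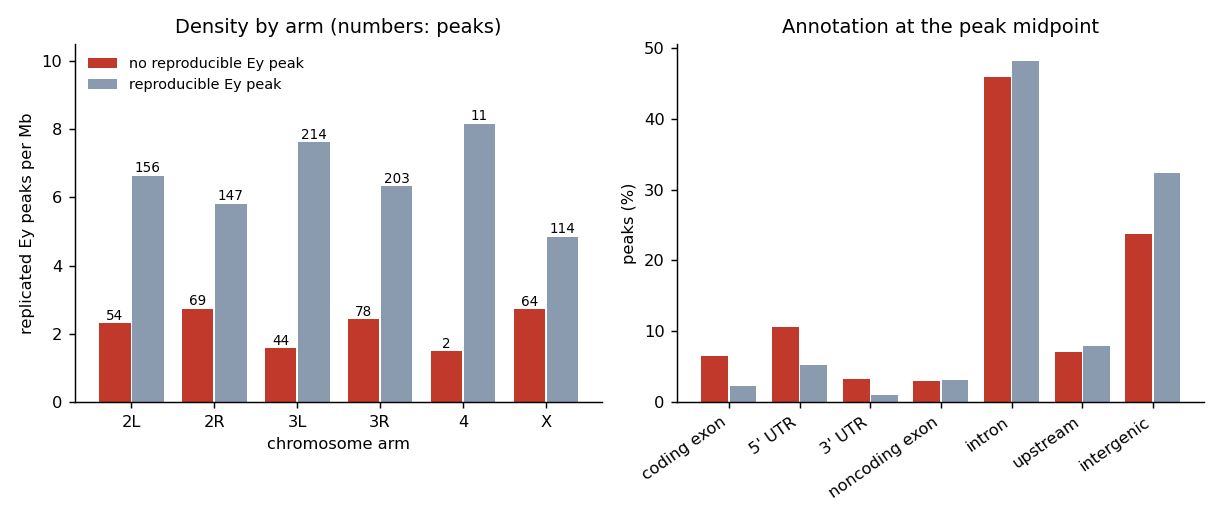
Left, missed (red) and retained (grey) Ey peaks per megabase of each chromosome arm, with their numbers above the bars: 44 and 214 on 3L, 64 and 114 on X. Right, share of peaks (y axis, %) by the annotation at the midpoint; coding exon, 5' UTR and 3' UTR bars are higher for the missed peaks and the intergenic bar is lower.

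In windows of 1000 bp centred on the missed peaks, consensus matches were about as frequent as in windows of the genome. These windows reach past the ends of shorter peaks. In them, 10 missed peaks (3.22%) had the Ey consensus of the study on either strand, against 33 retained peaks (3.91%). Of all consecutive windows of that length, 3.55% had it. A Su(H) match was found for 31 missed peaks (9.97%), against 110 retained peaks (13.0%) and 9.93% of windows. The Su(H) consensus was a textbook form and not that of the study. The Su(H) sites that the study mutated in the earlier-acting slp enhancer do not match it. The Ey and Su(H) motifs were searched separately, and only neur had both. With 1 mismatch allowed, 54.3% of missed peaks had an Ey match, against 61.5% of retained peaks and 53.2% of windows. The study accepted Ey sites with more mismatches than this, among them a site that it mutated in the same slp enhancer. Both Ey searches can therefore miss sites of that kind, and a low share is not a lack of Ey sites. Searched over the whole peak, the Ey share was 5.47% of missed and 8.64% of retained peaks. For Su(H) it was 13.5% and 22.5%, and the retained peaks are the longer ones. Within the missed peaks the Su(H) match was present in 19 of 162 (11.7%) with Su(H) peaks in both replicates, in 8 of 55 (14.5%) with 1 and in 4 of 94 (4.26%) with neither. The intronic peak of pnt, an ETS factor gene, held 3 Su(H) matches and scored 4.26 and 4.01, with Su(H) at 3.34 and 3.01.

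Within 1000 bp of a missed peak lay 403 of 18164 annotated genes (2.22%), of which 328 were protein coding and 61 were annotated as ncRNA. The 61 include short entries inside microRNA genes that are listed as well, so some microRNA genes were counted more than once. Genes for tRNA and snoRNA were not among the 61. For 90 of the 403 a reproducible Ey peak lay within the same distance, and for 313 (1.72% of all genes) none did. Hence 77.7% of the genes at missed peaks had no reproducible Ey peak within this distance. Most annotated genes lack one as well, since only 1006 of 18164 had a reproducible Ey peak within it. Su(H) peaks of both replicates lay near 166 of the 313 genes without one (53.0%), and a reproducible Su(H) peak near 77 (24.6%). The Su(H) share over all annotated genes was not computed, so these 2 shares cannot be read as high or low. No gene lay within 1000 bp of 54 missed peaks (17.4%), against 193 retained peaks (22.8%) and 20.3% of all replicate 2 peaks. In the following lists, long genes have more room for a peak, and the counts are read only against the 2.22% and 1.72% of all genes.

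Of 15 medulla temporal factor genes, 5 had a missed peak and 1, dmrt99B, had no reproducible Ey peak. The peak in dmrt99B, a DM-domain factor gene, scored 4.43 and 4.14, without any Su(H) peak. The homeodomain gene hth held 3 missed peaks in its introns. They scored 4.66, 4.37 and 4.28 in replicate 1 and 4.28, 4.02 and 4.15 in replicate 2, and hth had 3 reproducible Ey peaks elsewhere. The intronic peak of the homeodomain gene hbn, the closest to a reproducible peak, scored 4.45 and 3.56, with 2.64 in both Su(H) lists. The NK2 homeobox gene scro had an Ey peak of 3.69 and 4.19, with Su(H) at 2.32 and 2.09, its replicate 1 score being at percentile 0.748 of that list. A peak over the end of slp1, a forkhead gene, scored 4.41 and 3.04, with Su(H) at 2.73 and 2.44. Of the 15 genes, 10 had a reproducible Ey peak and 4 had neither.

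The slp1 and slp2 locus and the E(spl) complex held the groups with the most missed peaks. Joining missed peaks within 10000 bp of each other gave 288 groups, of which 271 were single peaks, and only these 2 groups held 4. They were singled out after their values were seen. In the slp locus 4 missed peaks lay over 15060 bp between retained peaks. Their replicate 2 scores were 4.39, 3.71, 3.04 and 3.98, and the replicate 1 scores of their best partners were 4.19, 4.19, 4.41 and 5.34. All 4 had Su(H) peaks in both replicates, with scores of 2.73 to 3.20 in replicate 1 and 2.44 to 3.14 in replicate 2, and 1 had a reproducible Su(H) peak.

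In the E(spl) complex 4 missed peaks lay over 19682 bp. Their replicate 2 scores were 4.10, 3.16, 4.20 and 4.60, and their replicate 1 scores 4.92, 3.77, 3.98 and 4.29. The Bearded-family genes E(spl)malpha-BFM, E(spl)m2-BFM and E(spl)m4-BFM and the bHLH repressor gene E(spl)m5-HLH had such a peak and no reproducible Ey peak within 1000 bp, while E(spl)m3-HLH had both. The missed peak near E(spl)m2-BFM lay inside the neighbouring gene Kaz-m1 and had no Su(H) peak. A reproducible Su(H) peak nevertheless overlapped E(spl)m2-BFM itself. The other missed peaks of the complex had Su(H) scores of 4.13, 3.61 and 4.07 in replicate 1 and 4.15, 3.60 and 3.57 in replicate 2. Each of them had a reproducible Su(H) peak. Among the 19 genes of the Hes, E(spl) and Bearded list, 6 had a missed peak and 5 of them had no reproducible Ey peak, with Hey outside the complex. Of the 30 Notch pathway components, only neur and Delta had one, and both also had reproducible Ey peaks.

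**Figure D4:**
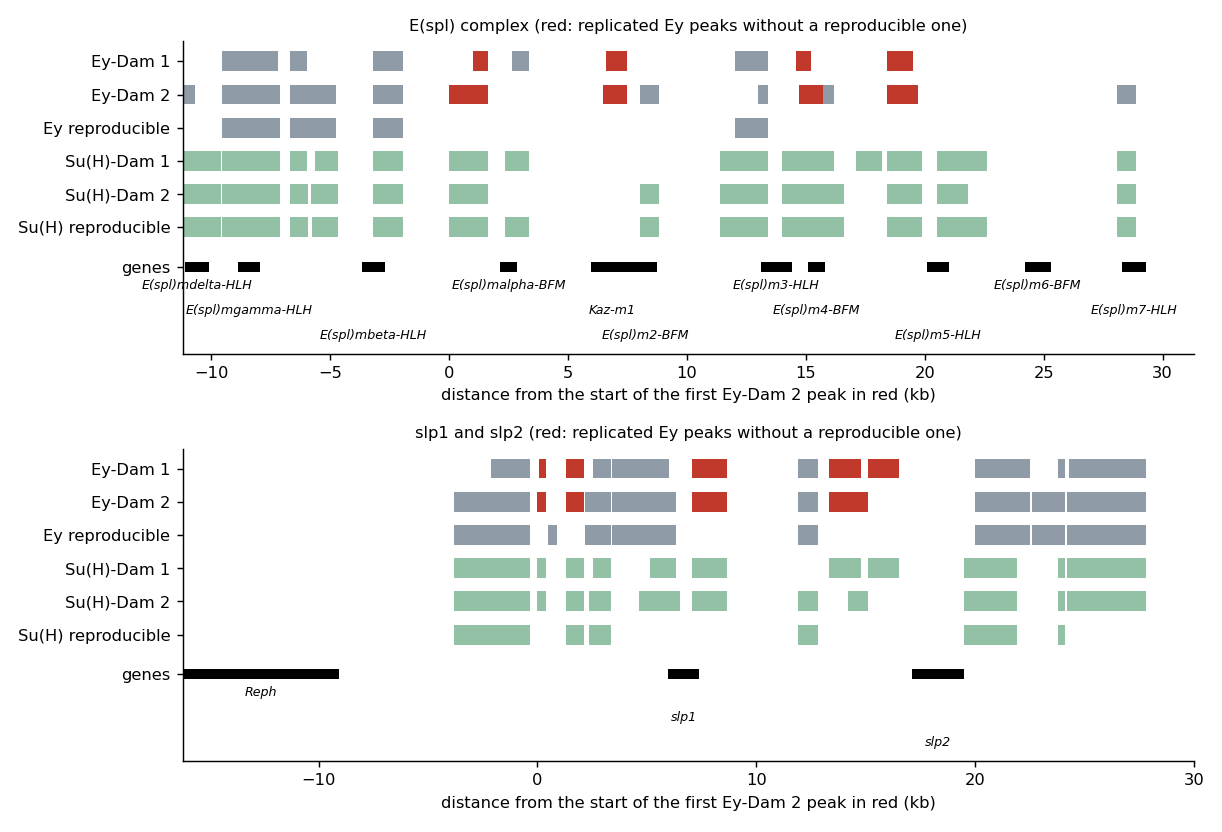
Peaks of the 6 lists (rows) and genes (black) along the E(spl) complex and the slp locus, in kb from the start of the first missed peak; red bars are missed peaks in Ey-Dam replicate 2 and their partners in replicate 1, grey bars other Ey peaks and green bars Su(H) peaks. At 3 of the 4 red positions of the E(spl) complex and at all 4 of the slp locus both Su(H) replicates have a peak.

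Of 29 neuroblast genes, 10 (34.5%) had a missed peak, beside 2.22% of all genes, and 23 had a reproducible Ey peak. The 3 without one were grh, svp and cas. The orphan nuclear receptor gene svp shared its peak with CG44037 and CG44038, with Ey at 4.29 and 4.90 and Su(H) at 2.24 and 2.63. The zinc finger gene cas had an Ey peak of 3.74 and 3.62 over a transcript start, with Su(H) at 2.75 and 2.84. Of 10 proneural genes and partners only l(1)sc, a bHLH gene, had a missed peak, at 4.93 and 3.47, and this was one of the overlaps of 1 bp. Of 25 neuron genes fne and ap had one. At ap, which encodes a LIM-homeodomain factor, the higher-ranked of 2 missed peaks scored 4.30 and 3.57 and had no Su(H) peak. The labelled cell type was the neuroblast, and the markers dpn, ase, wor, mira and insc all had reproducible Ey peaks and no missed peak. Among the markers of other cells, elav and loco had a reproducible Ey peak, nSyb, brp, repo and alrm had none, and none of these had a missed peak.

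Signaling genes were the other list with several genes added by missed peaks. Of 40, 9 had one and 5 had no reproducible Ey peak: aop, dpp, put, Stat92E and ft. The ETS repressor gene aop scored 4.70 and 4.45, and its Su(H) scores of 3.28 and 3.41 came with a reproducible Su(H) peak. The missed peaks at the other 4 genes had no Su(H) peak, although put had Su(H) peaks elsewhere within 1000 bp of the gene. Stat92E, the JAK/STAT factor gene, scored 4.44 and 3.26, the protocadherin gene ft 4.02 and 3.25, and put, a TGF-beta family receptor gene, 4.45 and 3.16. The ligand gene dpp, outside the 4 highest-ranked, scored 4.63 and 3.11. All of these but aop lay at percentiles under 7 in at least 1 list.

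The remaining lists held few. Of 13 retinal determination genes 3 had a missed peak, and of these danr, at 4.53 and 4.35, had no reproducible Ey peak, while eya (4.53 and 3.52) and hth did. Of 44 axon guidance and adhesion genes 4 had one: Ptp10D, Dscam2 (4.57 and 4.01), robo2 (5.25 and 3.40) and unc-5 (5.55 and 3.30). Both robo2 and unc-5 scored above the list median in replicate 1 and low in replicate 2, at percentiles 11.2 and 7.55. Of 13 glial genes pnt and Eaat1 (3.80 and 3.05) had one, and both had reproducible Ey peaks. Of 29 cell cycle genes only Rbf, a retinoblastoma-family gene, had one (4.16 and 4.23), with Su(H) scores of 3.56 and 3.51. Of 36 ribosomal protein genes RpS2 had one (3.86 and 4.08), and 0 of 40 genes of tissues outside the brain had one.

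**Figure D5:**
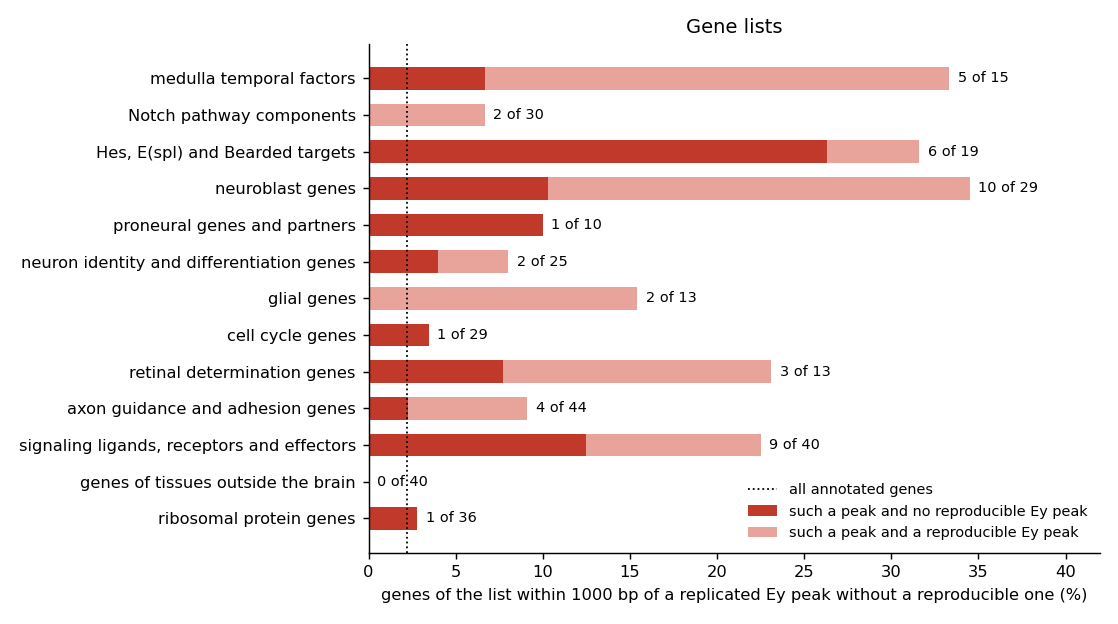
Share of each gene list (x axis, %) with a missed Ey peak within 1000 bp, dark red for genes without and light red for genes with a reproducible Ey peak; the dotted line is the 2.22% of all annotated genes. The Hes, E(spl) and Bearded list has the longest dark bar (5 of 19 genes), and the 10 neuroblast genes are mostly light.

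Several missed peaks could fall in 1 gene. This was so for 16 genes, 8 of them with at least 3. The zinc finger gene jing held 5 beside 8 reproducible Ey peaks, and 2 of these 5 shared a single replicate 1 partner and a single Su(H) peak. Kdm4B, a histone demethylase gene, held 4, and seq, which it overlaps, held 3 of these with no reproducible Ey peak. The missed peaks of CG45263, 2 in number, lay 135877 and 186788 bp from a reproducible Ey peak and had no Su(H) peak, at 4.83 and 5.23 in replicate 1 and 3.92 and 3.76 in replicate 2.

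All 311 missed peaks were present in the deposited list of overlapping Ey replicate peaks. The deposited list of sites shared by both factors in all replicates held 162 of them, the same 162 that had Su(H) peaks in both replicates by the count above.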

How the data were processed

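DamID-seq libraries with Dam fused to Ey or to Su(H), or with Dam unfused (2 each), were processed by the authors with damidseq_pipeline and Bowtie2 on dm6, and peaks were called with find_peaks. The deposited score in each replicate list (FDR under 0.01) is the one find_peaks gave from log2 ratios of fusion to Dam; the deposited score of the reproducible lists is that of IDR, run on peaks of FDR under 0.1 at a cut-off of 0.05. Of the 984 reproducible Ey peaks, 822 share the highest IDR score, 1000, so those scores rank nothing.

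Peaks were compared by overlap of at least 1 bp in Python 3.11.15 (pandas 2.3.3, numpy 2.4.6, scipy 1.17.1, matplotlib 3.10.9), after the class assignment was tested on simulated lists (1500 peaks, 100% recovered). Percentiles are the share of a list with a lower score. Genes are Ensembl release 115 without transposon insertions, within 1000 bp; 4 listed names (Dl, nct, kul, h) were matched through RefSeq synonyms to Delta, Nct, Kul and hry. Sequences come from the RefSeq Release 6 genome (dm6). The Ey consensus of the study has 16 positions and the textbook Su(H) consensus 8, both searched on both strands. Coordinates are those of the replicate lists, whose starts fall on the second base of a GATC. No test was made, since the rule used the calls and each group has 2 libraries. The members, gene lists and comparisons were chosen with earlier results of these data known. Named peaks are the 10 with the highest lower Ey percentile, the 5 with the highest lower Su(H) percentile, the 5 highest without Su(H), the temporal factor genes, up to 4 genes of each other list (those without a reproducible Ey peak first), and the 3 nearest the rule on each side; others named were chosen after their values were seen. The deposited list of overlapping Su(H) replicate peaks was not used.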

Additional observations from a re-analysis of the deposited data

How the results depend on the processing

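The number of missed peaks was 305 when overlaps had to span 50% of the shorter one, 285 counting only those over 1000 bp from a reproducible Ey peak and 311 with Ey-Dam replicate 1 giving the peaks; it was 0 when only peaks at or above each Ey-Dam list's median score were used, where no Su(H) share could be given. The share with Su(H) peaks in both replicates, 52.1%, ranged from 49.8% to 52.7% under the alternative member sets that gave a value and was 50.8% with the stricter Su(H) overlap. With one Su(H)-Dam library left out it was 60.5% to 61.4% (retained peaks 81.2% to 82.5%), by construction since fewer lists had to agree. It was 11.6% with Su(H) peaks at or above each list's median score (retained 47.7%) and 21.5% with reproducible Su(H) peaks (retained 65.4%). Among replicate 2 Ey scores from 3.5 to under 4.5, a range chosen after the data were seen, it was 58.2% (retained 65.4%). In the upper part of that range, from 4 to under 4.5, it was 68.8% of 80 missed and 68.1% of 160 retained peaks. Apart from that upper part, the missed share was the lower one in each of these. Genes within 5000 bp numbered 776, of which 543 lacked a reproducible Ey peak. The share with an Ey consensus match was 54.3% with up to 1 mismatch. The other alternatives stayed within 1.5 times the count or within the 95% binomial interval of the share. No paired analysis was possible because no result came from a test. With 2 libraries a group and no read counts in the peak lists, small differences in these shares cannot be resolved, and the peaks that entered the IDR program were not analysed here.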
